A study of Mus musculus with 2 samples.

Results

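The adrenal gland of the mouse was sequenced by long-read RNA-seq in 2 libraries of C57BL/6J tissue. The transcripts described here have the longest annotated lengths among spliced models with every junction matched by a read. They are the known models of at least 2 exons with an annotated length of 6000 bases or more that had at least 1 read in either library. The rule used the class, the exon number and the annotated length of a model, not its reads beyond the presence of 1. It found 689 models in 647 genes, of 20183 known spliced models in all, with 475 seen in replicate 1 and 602 in replicate 2. Of the 689, 388 had reads in both libraries, 87 in replicate 1 alone and 214 in replicate 2 alone. The libraries form 1 group of wild-type tissue with no treatment named, and carry the biological replicate numbers 1 and 2. They are separate tissue samples that share 1 donor entry, one label field calls the tissue male, and sex and age were not collected. No condition was compared: every test below sets replicate 2 against replicate 1. Its p-value takes reads as independent and covers counting error only, as a single library per side gives no spread between samples. Differences between the libraries may be technical. Replicate 1 held 848782 reads and replicate 2 held 545229, so that 1 read was worth 1.18 and 1.83 counts per 1000000 reads (CPM).

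A long mature messenger RNA can owe its length to a long coding sequence or to a long untranslated region after the stop codon, the 3′ UTR. The 3′ UTR usually lies in the last exon, which has no junction inside it, and it holds sites for microRNAs and RNA-binding proteins. Where the RNA is cut and given its poly(A) tail is set in part by a hexamer, most often AATAAA or ATTAAA, that lies shortly before the cut. A gene with several such sites makes messages that share every junction and differ only in how far the last exon runs. An oligo(dT) primer, which starts the cDNA at the poly(A) tail, can also anneal to a run of A inside the message; how these cDNAs were primed is not given in the sources used here. A read is classed as known when it holds all junctions of an annotated transcript, and as an incomplete splice match (ISM) when it holds an unbroken run of them but not all. An ISM read of the Prefix kind lacks junctions at the 3′ side and one of the Suffix kind lacks them at the 5′ side.

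The deposited known models carry the annotated exons without exception (0 of the known spliced models differed from GENCODE M21), so a known read does not show how far it ran along the last exon. Ends were therefore taken from the spliced models whose ends come from reads, which are the ISM models and the unannotated models of known sites in a new combination (NIC) or with a new site (NNC). The deposited exons give each model a single end, at which all its reads are counted here. The ends of single reads are therefore not known. The 30-base windows below are given on genome build mm10. Those of the first and second sets lie in the last exons of members, and are shown because models of these genes ended there far from the annotated end. They were chosen after the values were seen, and not by read numbers alone, as some ends with more reads were left out. Among ends before a run of A, that of Slc6a6 with 0 reads in replicate 1 and 39 in replicate 2 is not shown. That of Nacc2, with 13 and 12 reads, is shown. The first set gives the 30 bases up to the end, on the strand of the gene, with the hexamer in capitals, all in the annotated 3′ UTR.
Soat1-207, chr1:156429793-156429822, minus strand: gatgaAATAAAtgactatgtgatcatttgt
Eif4g2-213, chr7:111071932-111071961, minus strand: gtatctatcAATAAAcattgtgatacttga
Col4a1-201, chr8:11199519-11199548, minus strand: cgctcctgatccAATAAAagatgaattgca
Preb-201, chr5:30955043-30955072, minus strand: atttAATAAAgagagaacaattgaaccgag
G3bp1-201, nearer end, chr11:55500123-55500152, plus strand: ggctaactgAATAAAaggtggttgcagacc
G3bp1-201, farther end, chr11:55500481-55500510, plus strand: tAATAAAgattctagatttgttttcagatt
Mprip-204, chr11:59776194-59776223, plus strand: tttggttttttATTAAAtcttgcacaaaag

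The second set gives 10 bases before the end and, in capitals, the 20 bases of the annotated message after it, at ends with no hexamer in the 40 bases before them. These also lie in the 3′ UTR, and the capitals hold 14 to 19 A.
Akap2-205, chr4:57893106-57893135, plus strand: gcaatacaccATGATAAAAAAACAAAAAAC
Glg1-204, chr8:111157545-111157574, minus strand: gcaactcaaaTTTTTAAAAAAAAAAAACAA
Nacc2-201, chr2:26058990-26059019, minus strand: gaccgaacagAGAAAAAAAAAAAAAAAAAA

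The third set comes from inner coding exons in which many Prefix models of a member stopped. Where in the exon they stopped is not shown. The capitals mark the 20 bases of the exon with the most A, 14 to 16 of them. These exons were also picked after the values were seen, and not by read numbers alone. Kif5b exon 11, with 456 reads in replicate 1 and 31 in replicate 2, is left out. So is Wwp1 exon 3, with 54 and 0 reads and at most 9 A.
Sf3b1-201, exon 11 of 25, chr1:55003150-55003179, minus strand: tccagAAGAACAAAAAGAAAGAAAAataat
Pkn2-201, exon 2 of 22, chr3:142853482-142853511, minus strand: catttTGAAAAAATCAAATAAAAAAttaga
Hnrnpu-201, exon 11 of 14, chr1:178330732-178330761, minus strand: ggagcAATATAAAGAAGAAAGCAAAaaggc
Smarca5-201, exon 17 of 24, chr8:80709717-80709746, minus strand: tgaacCACCAAAAAGAGAAAGAAAAgccaa

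Most members were long because of 1 exon. Their median length was 7054 bases (quartiles 6464 and 8409) with a median of 11 exons (range 2 to 52), and the last exon had a median of 5456 bases, 76.2% of the model. The last exon was the longest exon in 674 of the 689, the first in 13 and an inner exon in 2. It made up more than 50% of the length in 616 models (89.4%), against 61.5% of the 2400 known spliced models of at least 4000 and under 6000 bases. Coding sequences were of similar size in the 2 classes, with medians of 1887 bases in members and 1917 bases in models of at least 4000 and under 6000 bases, while the sequence after the stop codon had medians of 5074 and 2420 bases. Protein-coding models were 673 of the members. The other 16 were 7 with a retained intron, 4 lincRNAs, 3 marked for nonsense-mediated decay, Tug1-201, annotated as antisense (14 reads in replicate 1 and 22 in replicate 2, counted by a method whose use of strand is not given in the sources used here), and a lncRNA at a bidirectional promoter. Only 5 members had exactly the introns of a shorter annotated model of their gene, and those shorter models had 0 reads in either library. The 5 members themselves had 3 reads in replicate 1 and 28 in replicate 2. Members whose introns lie as an unbroken run in a shorter annotated model numbered 71. A read with all junctions of such a member may also be an incomplete read of that shorter model.

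The spliced span, which is the length without the first and last exon and so the least a read must cover to hold every junction, had a median of 1330 bases (quartiles 694 and 2200). The 30 members of 2 exons have a span of 0, 257 members had a span under 1000 bases and 75 had one of 3000 bases or more. The highest was 5449 bases, in Vwa8-201, so no member needed a read of 6000 bases to be called known. The longest annotated member shows the gap: D10Wsu102e-201 is listed with 123179 bases, of which 122802 are its last exon, and its 4 exons span 224 bases. It had 14 reads in replicate 1 and 28 in replicate 2. Hnrnpr-207, of an RNA-binding protein, is listed with 21452 bases, a span of 1301, and 9 and 13 reads. Ahnak-202, of a giant scaffold protein, is listed with 18100 bases, a span of 456, and 6 and 9 reads. Among unannotated models, whose length does come from reads, 12 of 80390 in replicate 1 and 17 of 70280 in replicate 2 reached 6000 bases, and the longest had 7032 and 8590 bases.

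**Figure D1:**
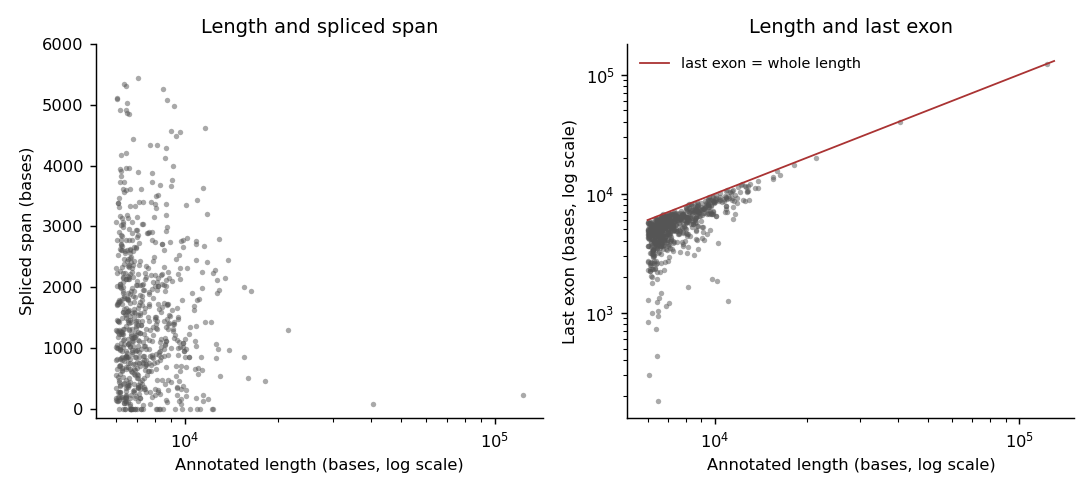
Each point is 1 of the 689 members, with its annotated length on the x axis (bases, log scale) and, on the y axes, its spliced span (left, bases) or its last exon (right, bases, log scale); the red line marks a last exon as long as the whole model. Spans stay at or below 5449 bases at every length, and most last exons lie close to the line.

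Members held 7266 reads in replicate 1 and 9917 in replicate 2. That was 1.18% of all known reads in replicate 1 (95% interval 1.15 to 1.21, exact Clopper-Pearson) and 2.51% in replicate 2 (2.46 to 2.56), with a mean of 1.84% ± 0.94 (SD, n = 2). Intervals here and below cover counting error only. Reads were unevenly spread: 161 members had a single read over both libraries, 41 had 100 or more, and the 10 most read members held 30.5% and 27.9% of the member reads.

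The 12 members of highest mean CPM came from genes of different roles. G3bp1-201, of a stress granule protein (chromosome 11, 55469685 to 55504838), had 429 reads in replicate 1 and 333 in replicate 2, a mean of 558 CPM ± 74.5 (SD, n = 2). Zfand5-205, of a zinc finger protein that activates the proteasome (chromosome 19, 21272278 to 21286840), had 163 and 419 reads, and Hnrnpu-201, of a nuclear RNA-binding protein (chromosome 1, 178324343 to 178337797), had 93 and 418. The taurine transporter Slc6a6-201 had 118 and 273 reads. These 4 models stood highest in mean CPM, and their order differed between the libraries. Soat1-207, of the enzyme that esterifies cholesterol for storage in lipid droplets (chromosome 1, 156424525 to 156474331), had 162 and 226 reads, or 191 and 415 CPM. Mapre1-201, of a protein of growing microtubule ends, had 206 and 175 reads, and Ncl-201, of nucleolin, had 10 and 275. Glo1-206, of glyoxalase, had 231 and 108 reads, which made it the only one of the 12 with fewer CPM in replicate 2. The kinase anchor Akap2-205 had 64 and 207 reads, Ssr1-201 of the protein channel of the endoplasmic reticulum 50 and 215, Fech-208 of the last step of haem synthesis 89 and 183, and the lipid droplet GTPase Rab18-205 53 and 204.

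**Figure D2:**
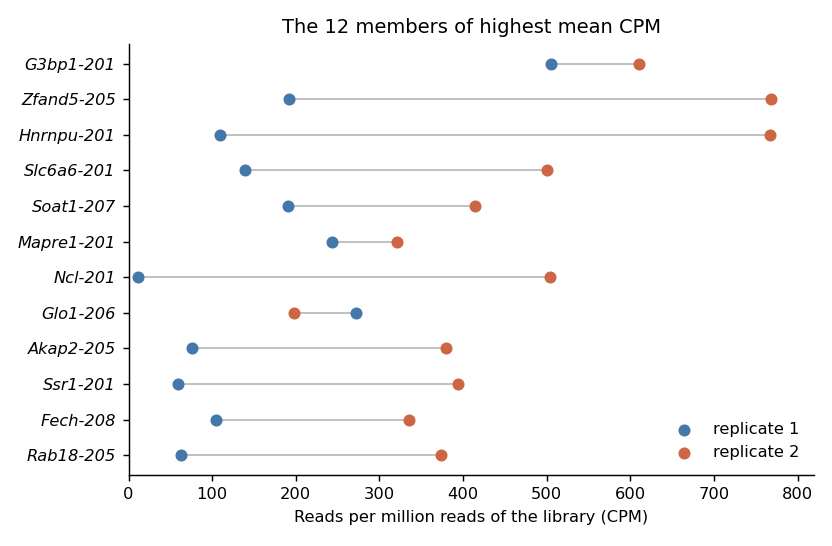
Level of the 12 most read members in CPM (x axis), 1 point per library and a grey line between the 2. Ncl-201 runs from 11.8 CPM in replicate 1 to 504 CPM in replicate 2, while G3bp1-201 stands at 505 and 611 CPM.

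The libraries differed for most of the members that had enough reads to test, as they did for most known spliced models tested. With at least 10 reads summed, 253 members entered a comparison of a model's reads with the rest of its library by Fisher's exact test (two-sided), with Benjamini-Hochberg adjustment over all 7807 known spliced models that met the same minimum. In replicate 2, 141 members were higher (55.7%, against 41.8% of all models tested) and 33 were lower (13.0%, against 33.7% of all). The median log2 ratio of replicate 2 over replicate 1, after adding 1 CPM, was 1.37 in the members tested and 0.41 in all models tested. The split depended on the scaling, and that over all known spliced models turned. Of the called members, 81.0% were higher with total reads, 69.4% with TMM factors and 65.2% with DESeq2 size factors. Of all called models, 55.3%, 45.3% and 42.9% were higher. These factors set replicate 2 lower by 0.55 and 0.64 on the log2 scale, before the 1 CPM is added. The models of known spliced reads had a median annotated length of 1674 bases in replicate 1 against 2740 in replicate 2, and a median spliced span of 547 against 1147 bases. The part of this difference in the calls was not tested.

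The members that differed most had a wide range of spans. Col4a1-201, of the basement membrane collagen of vessels, has 52 exons and had 0 reads in replicate 1 and 44 in replicate 2. It was at least 22.8-fold higher in replicate 2, counting 3 reads for the 0 (Fisher's exact test, adjusted p = 7.92e-18). Ncl-201 was 42.8-fold higher in replicate 2 (adjusted p = 2.44e-95, the same Fisher's exact test). Tardbp-202, of the RNA-binding protein TDP-43, had 1 and 38 reads, March6-201, of a ubiquitin ligase of the endoplasmic reticulum, 0 and 23, Yod1-201, of a deubiquitinase, 0 and 17, and Pum2-202, of a translational repressor, 0 and 13. In the other direction, Timm17a-201, of the inner mitochondrial membrane translocase, had 239 and 5 reads and was 30.7-fold higher in replicate 1 (Fisher's exact test, adjusted p = 6.32e-43). The mitochondrial ribosomal protein model Mrpl17-202 had 167 and 4 reads and was 26.8-fold higher there (Fisher's exact test, adjusted p = 1.37e-29). Ebpl-201 had 36 and 0 reads, AU022252-203 15 and 0, Amer1-201, of a regulator of Wnt signalling, 13 and 0, and Chic2-201 32 and 1. All of these passed the test under each scaling tried. G3bp1-201 and Mapre1-201 did not keep their direction: they were higher in replicate 2 with total reads (log2 ratios of 0.27 and 0.40), and lower with TMM factors (-0.27 and -0.14) and with DESeq2 size factors (-0.36 and -0.23).

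Within members, the ratio went with the spliced span more than with the length. The 141 members higher in replicate 2 had a median span of 1596 bases and a median length of 7052 bases, and the 33 lower ones a median span of 404 bases and a median length of 7392 bases. In the span class under 500 bases, 19 of 57 tested members were higher and 20 lower, and from 2000 to under 3000 bases 34 of 41 were higher and 0 lower. All 11 calls among the 12 tested from 3000 to under 4000 bases were higher. Over all known spliced models tested, 41.8% were higher and 33.7% lower, and their calls are not given here by span class. As the median span per known spliced read was 547 bases in replicate 1 and 1147 in replicate 2, this trend is not shown to be particular to members. Over the 253 tested members, which share both libraries, Spearman's rho between log2 ratio and span was 0.51, and that between log2 ratio and length was -0.06. Members under 500 bases of span held 33.4% of the member reads in replicate 1 and 14.1% in replicate 2, and those of 2000 to under 3000 bases 6.62% and 21.1%.

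The same span set apart the annotated transcripts that were seen from those that were not. GENCODE M21 lists 4081 spliced transcripts of 6000 bases or more, of which the members are 16.9%. In genes with at least 20 reads over both libraries, 1299 such transcripts are listed and 418 had a known read. The share with a known read was 72.8% under 500 bases of span (75 of 103, 95% interval 63.2 to 81.1), 67.0% from 1000 to under 2000, 49.7% from 2000 to under 3000 and 19.7% from 3000 to under 4000 (30 of 152, 13.7 to 27.0). It was 10.3% from 4000 to under 5000, 3.55% from 5000 to under 6000 (5 of 141) and 0 of 309 at 6000 bases or more, where an exact interval reaches 1.19%. The median reads per gene lay between 38 and 53 in every class. By length alone the share moved less, in a set cut at 6000 bases. It went from 39.3% at 6000 to under 7000 bases to 26.9% at 7000 to under 8000. At 8000 to under 10000 it was 88 of 275 models, and at 10000 bases or more 20.9%.

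**Figure D3:**
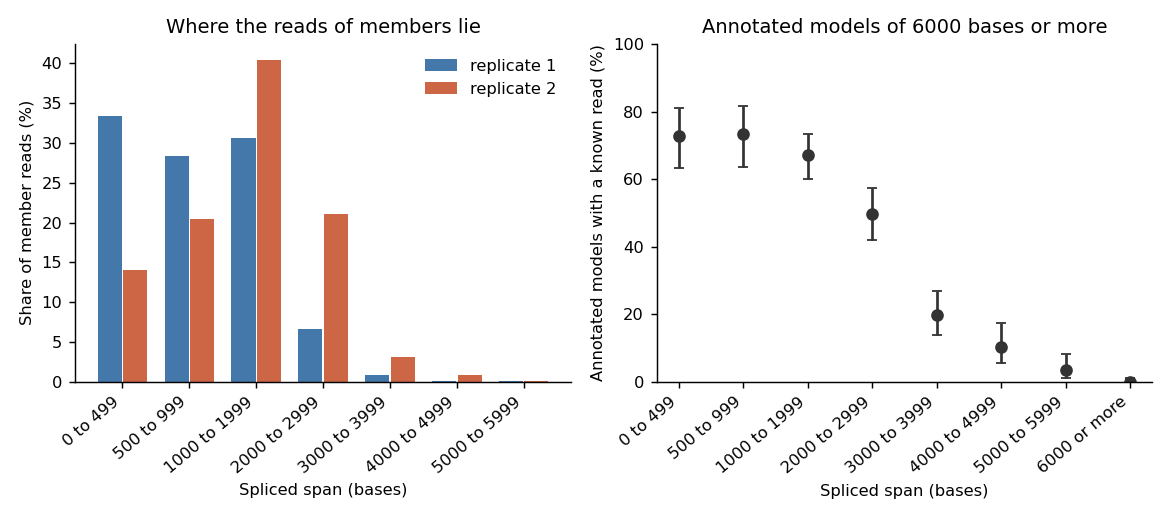
Left: share of the reads of members (y axis, %) by spliced span (x axis, bases), 1 bar per library. Right: share of annotated spliced transcripts of 6000 bases or more, in genes with at least 20 reads, that had a known read, with exact 95% binomial intervals; it runs from 72.8% under 500 bases of span to 0 at 6000 bases or more.

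Genes were also taken in lists by their roles, and few of them had a member. Between 10 of 27 (imprinted and noncoding) and 72 of 78 (chromatin) genes of a list have an annotated spliced model of 6000 bases or more. Among endothelial and immune genes 11 of 29 do. The calls below are few per list and stand beside 41.8% higher among all models tested and 55.7% among all members tested, so nothing is read from them about a list. Among receptors and signalling genes of adrenal hormones, 12 of 59 genes had a member, with 189 reads in replicate 1 and 443 in replicate 2. Of 6 models tested, 5 were higher in replicate 2 and Akap2-202 (16 and 11 reads) did not pass. Most of the reads lay on Akap2, which anchors protein kinase A (models 202, 204, 205 and 206), and on the prolactin receptor model Prlr-202, with 53 and 86 reads. Akap2-204 (18 and 29 reads) no longer passed with either other scaling. Nr3c1, the glucocorticoid receptor, had 47 and 9 reads and no read on a model of 6000 bases or more.

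Among genes of lipid, lipoprotein and steroid handling, 8 of 48 had a member, with 166 and 242 reads, and Soat1-207 held nearly all of them. Both models tested were higher in replicate 2: Soat1-207 and the lipoprotein receptor model Vldlr-207 (2 and 10 reads), which did not pass with DESeq2 size factors. The third by level was the transporter model Abcc1-201 with 0 and 2 reads. Of the 30 genes of that list with reads and an annotated transcript of 6000 bases or more, 22 had no member, among them the fatty acid synthase Fasn (30 and 42 reads, of which 21 and 38 ISM) and the receptor Lrp1 (19 and 10 reads, of which 13 and 6 ISM).

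Among genes of RNA processing, translation and trafficking, 11 of 55 had a member, with 27 reads in replicate 1 and 194 in replicate 2. All 3 models tested were higher in replicate 2: the translation regulator Eif4g2-213 (25 and 147 reads), the nuclear import receptor Tnpo1-202 (1 and 15) and Pum2-202. Their spans were 2741, 2717 and 3081 bases. Of the members tested, 34 of 41 with a span of 2000 to under 3000 bases were higher, and 11 of 12 with one of 3000 to under 4000. The part of span in these calls was not tested. The splicing scaffold genes Srrm2 and Son, whose annotated long models span at least 7860 and 6298 bases, had no member. Srrm2 had 673 reads in replicate 1, of which 633 were ISM, and 37 in replicate 2, of which 26 were ISM. Son had 448 reads in replicate 1, of which 425 were ISM, and 34 in replicate 2, of which 16 were ISM and 17 genomic.

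Among 62 genes of extracellular matrix and adhesion, 8 had a member, with 0 reads in replicate 1 and 61 in replicate 2. Only Col4a1-201 was tested; the basement membrane models Nid1-201 and Col4a2-201 had 0 and 6 and 0 and 5 reads. Of 29 endothelial and immune genes 1 had a member, the VEGF receptor model Flt1-203, with 9 and 46 reads and a log2 ratio of 2.88 (Fisher's exact test, adjusted p = 6.95e-11). All 4 markers of endothelium used as a check were read in both libraries and summed to 229 and 1047 CPM, those of macrophages (3 of 3 read) to 1157 and 240 CPM, those of the medulla (5 of 5) to 10093 and 23122 CPM, and those of the cortex (5 of 5) to 55635 and 81170 CPM. Markers of stroma (2 of 2 read) summed to 401 and 154 CPM, those of adipocytes (2 and 1 of 2 read) to 101 and 42.2 CPM, and those of Schwann cells (3 and 2 of 3 read) to 5.89 and 5.50 CPM. Of the 4 kidney markers, 1 had a single read in replicate 1 and none had a read in replicate 2. In bulk tissue, fewer cells of a type and less RNA per cell cannot be told apart, and the part of cell makeup in these values was not tested.

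The remaining lists held little. Of 48 cytoskeletal and motor genes 3 had a member: the kinesin model Kif1b-201 (2 and 23 reads, higher in replicate 2), Ahnak-202, which did not pass, and Map4-201 with 1 and 0 reads. Of 78 chromatin and transcription regulators 5 had one, with the demethylase model Kdm5b-201 (0 and 10 reads) higher in replicate 2 and Foxo1-201 (9 and 2) not passing. The third was the DNA methyltransferase model Dnmt3a-201 with 3 and 3 reads. Of 60 channel and secretion genes 5 had one, led by Rab3gap2-201 (2 and 9 reads), which was higher in replicate 2 but not with DESeq2 size factors, followed by the potassium channel model Kcnk9-201 (4 and 2). Of 54 kinase and repair genes 4 had one, among them Pik3r1-202 (1 and 3), Taok1-201 (0 and 3) and Pik3cb-201 (0 and 1), and of 27 imprinted and noncoding genes 2 did, Peg3-201 (0 and 2) and Rian-201 (2 and 0). None of the 29 listed ubiquitin ligases and proteasome regulators had a member, although 20 had reads and an annotated long model; these 20 had 486 and 227 reads, of which 356 and 152 were ISM and 9 and 3 known. The median span of those long models was 8104 bases.

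Genes with a member had fewer known and more incomplete reads than other genes, above all in replicate 1. Of their 19109 reads in replicate 1, 46.7% were known, 26.3% ISM and 20.1% genomic, a class of reads that lie in a gene but follow none of its splice patterns. Of their 19205 reads in replicate 2, 63.7% were known, 13.3% ISM and 10.9% genomic. The ISM share of the reads of all other genes was 12.3% and 10.05%, and their genomic share 4.43% and 3.07%. Single-exon genomic reads that lay wholly in the last exon of a member were 67.7% of the genomic reads of these genes in replicate 1 (2597 of 3835) and 73.8% in replicate 2 (1537 of 2084).

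Per gene, the share of ISM among ISM and known reads was taken where there were at least 20 such reads. The median over genes with a member was 18.4% in replicate 1 (quartiles 8.70 and 67.7, 165 genes) and 9.09% in replicate 2 (3.85 and 24.3, 161 genes), against 6.67% (4172 genes) and 6.17% (3323 genes) in other genes with a known spliced read. More than 50% of the reads were ISM in 52 of the 165 and 18 of the 161. The share did not keep rising with length: by the mean known length of the gene, weighted by reads, the median was 17.6% and 12.5% at 5000 to under 6000 bases and 13.0% and 8.84% at 6000 bases or more. It rose with span in genes with a member, from 8.0% under 500 bases to 67.7% at 2000 to under 3000 bases in replicate 1, and from 2.46% to 24.3% in replicate 2. Other genes showed a rise over the same classes, from 1.80% to 43.4% and from 2.70% to 14.7%. Spearman's rho of share and span over genes with a member was 0.56 (156 genes) and 0.65 (161 genes), and that of share and length -0.20 and -0.13. The rule selects these genes by a long model, so span and length are not compared evenly. These genes share a library and differ in depth.

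Among the 105 genes with a member and at least 20 such reads in each library, ISM shares ran from 0 to 100%. At the low end, Pde12, of a mitochondrial phosphodiesterase, had 0 of 26 ISM reads in replicate 1 and 0 of 36 in replicate 2. The recycling GTPase gene Rab11b had 2 ISM reads beside 231 known in replicate 1 and 0 beside 74 in replicate 2, the sphingosine receptor gene S1pr2 0 beside 26 and 1 beside 36, Glo1 3 beside 239 and 3 beside 108, and Akap2 5 beside 127 and 2 beside 333. The highest belonged to Map4, a microtubule-associated protein, at 98.4% and 97.4%, the chromatin remodeler gene Smarca5 at 97.9% and 94.4%, Col4a2 at 100% and 90.9%, the splicing factor gene U2surp at 96.4% and 88.5%, and the kinesin heavy chain gene Kif5b at 97.8% and 85.5%. In those 5 genes the known reads numbered at most 12 in either library.

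The ISM share was lower in replicate 2 in 90 of the 105 genes, and 39 passed Fisher's exact test after adjustment (37.1%, against 26.0% of all 2363 genes tested). None was higher in replicate 2 (against 3.81% of all), also at an unadjusted p under 0.05, where 49 were lower. The median difference was -9.09 percentage points in genes with a member and -4.01 in all genes tested. The 3 of lowest adjusted p were Ncl, Hnrnpu and Hdlbp. In Ncl the share was 85.0% in replicate 1 (95% interval 76.9 to 91.2, 91 ISM and 16 known reads) and 7.69% in replicate 2 (4.94 to 11.3, 23 and 276, members being 62.5% and 99.6% of its known spliced reads), with an adjusted p of 4.96e-49 by Fisher's exact test. In Hnrnpu it was 53.5% (46.3 to 60.6) and 13.4% (10.5 to 16.8). In the vigilin gene Hdlbp, an RNA-binding protein gene, it was 90.2% (85.8 to 93.6) and 35.3% (26.1 to 45.4), but members made up 12.5% and 43.1% of its known spliced reads.

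Matching by introns tied 4005 of the 5025 ISM reads of these genes to a member in replicate 1 (79.7%) and 2024 of 2554 in replicate 2 (79.2%). Many of these runs also fit a shorter annotated model: 37.7% and 44.6% of the ISM reads matched a member and no shorter model. Of the matched reads, 74.5% lacked only 3′ junctions in replicate 1 and 21.8% only 5′ junctions, whereas in replicate 2 40.5% lacked only 3′ junctions and 55.4% only 5′ junctions. A read without its 3′ junctions lacked a median of 11 of them in replicate 1 and 7 in replicate 2. Against the reads of the members themselves, matched ISM reads were 3.88% under 500 bases of span in replicate 1 and 92.4% at 3000 bases or more, and 2.72% and 61.0% in replicate 2. The lowest class holds the 30 members of 2 exons, which have a single junction and so could have no matched incomplete read.

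**Figure D4:**
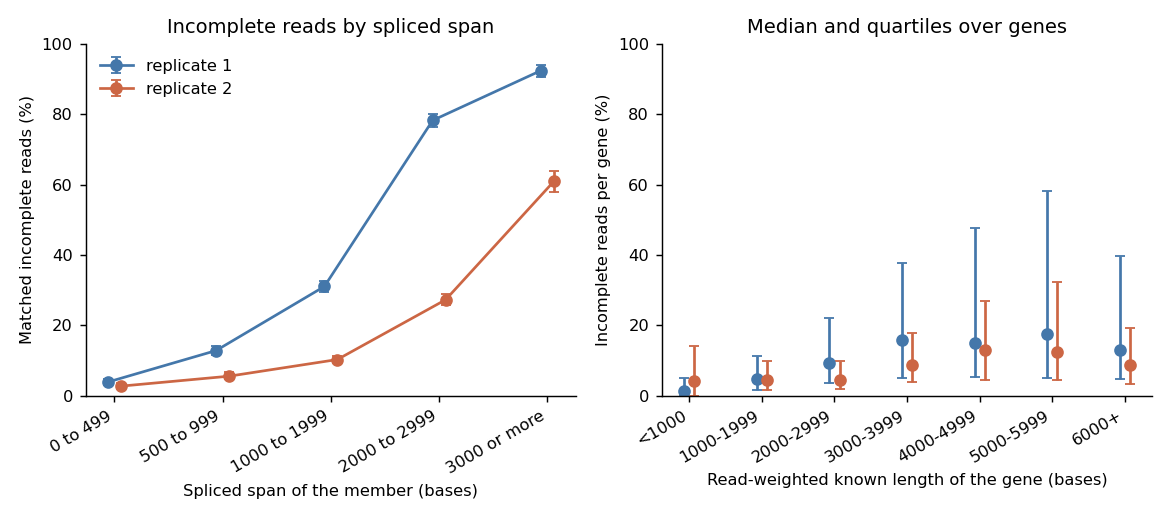
Left: matched ISM reads as a share of matched ISM and member reads (y axis, %) by the spliced span of the member (x axis, bases), with exact 95% binomial intervals, 1 line per library; the 2 lines start at 3.88% and 2.72% and end at 92.4% and 61.0%. Right: ISM share per gene (y axis, %) by the read-weighted known length of the gene (x axis, bases), as the median (point) and quartiles (bars) over genes with at least 20 reads; the medians at 6000 bases or more, 13.0% and 8.84%, lie below those at 5000 to under 6000 bases.

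Some of the inner exons in which models that lacked 3′ junctions stopped hold dense runs of A. In replicate 1 such models stopped in 648 exons and in replicate 2 in 370, of which 155 were the same exons (23.9% and 41.9%). Kif5b exon 11, of 26, led with 456 reads in replicate 1 and 31 in replicate 2, followed by exon 11 of the splicing factor gene Sf3b1 with 129 and 25, shown above. Pkn2 exon 2 had 60 and 1 reads, Hnrnpu exon 11 had 25 and 25, and Smarca5 exon 17 had 21 and 15. A window of 20 bases with at least 14 A was found in 13.3% of the stop exons in replicate 1 (86 of 648) and 10.3% in replicate 2 (38 of 370), against 2.90% of all 4796 inner exons of the same members. In exons of at least 100 and under 200 bases, the values were 14.6% and 10.5% against 2.997%. By reads, 40.2% and 29.6% of the reads without 3′ junctions belonged to models that stopped in such an exon. This read share leans on a few exons: of the 1200 reads in replicate 1, Kif5b exon 11 held 456 and Sf3b1 exon 11 held 129. Of the 243 in replicate 2 they held 31 and 25. No background by reads is given for it. Stop exons without such a window include Glg1 exon 16 (80 and 12 reads, at most 11 A) and Wwp1 exon 3 (54 and 0 reads, at most 9 A).

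ISM, NIC and NNC models that reached the last exon of a member seldom reached its annotated end. Of ISM, NIC and NNC models that share the start of a member's last exon, 1243 in replicate 1 held 1777 reads and 1978 in replicate 2 held 3179. Models that ended within 50 bases of the annotated end held only 4.90% of these reads in replicate 1 (87 reads, 95% interval 3.94 to 6.00). In replicate 2 they held 6.76% (215 reads, 5.91 to 7.69). The rest of the reads but 1 belonged to models that ended before it. The models covered a median of 656 bases of the last exon in replicate 1 and 990 in replicate 2, or 13.9% and 20.1% of it, and had a median length of 1967 and 2901 bases. The most read members are examples. For G3bp1-201, with a last exon of 5380 bases, models that held 37 reads in all in replicate 1 ended at 694 to 1045 bases into it. Those of replicate 2, with 30 reads in all, ended at 1052 to 1426 bases. For Soat1-207, with a last exon of 6591 bases, the median was 1323 bases in both libraries (27 and 48 reads), and for Zfand5-205, of 6418 bases, it was 1223 and 1868 bases (9 and 29 reads). None of those models ended within 50 bases of the annotated end. How far the known reads of members ran, 7266 in replicate 1 and 9917 in replicate 2, is not shown by the deposited models.

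The ends inside last exons lay close after poly(A) hexamers more often than positions in general did. They formed 504 distinct ends in replicate 1 and 655 in replicate 2, and 39.5% and 30.4% of them were at a base where both libraries had an end. AATAAA or ATTAAA, on the strand of the gene, began within the 40 bases before 36.7% of the ends in replicate 1 (185 of 504) and 41.1% in replicate 2 (269 of 655), against 4.32% of all positions of the same last exons. The median distance from the first base of the hexamer to the end was 21 bases in both libraries. At least 12 A in the 20 bases after the end stood at 27.6% and 22.4% of the ends, against 1.60% of all positions, and 12 and 15 ends had both features. Either feature stood at 61.9% and 61.2% of the ends, and 192 and 254 ends had neither.

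**Figure D5:**
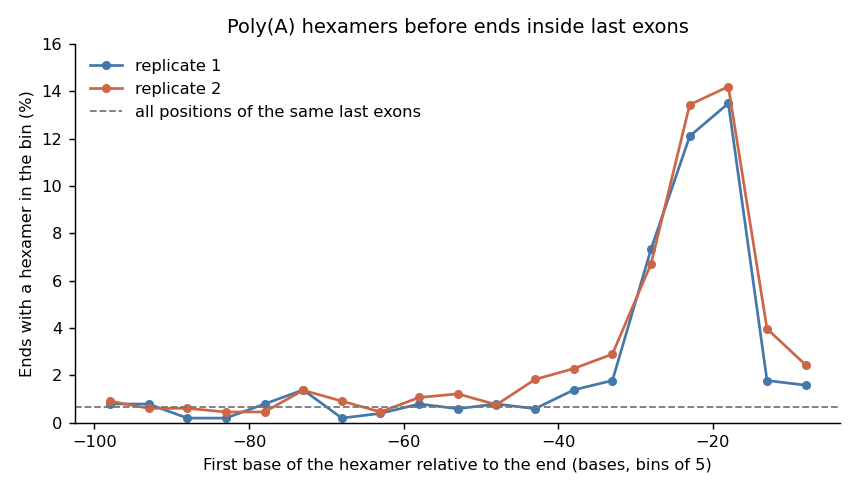
Share of distinct ends inside members' last exons (y axis, %) with a poly(A) hexamer that starts in each 5-base bin before the end (x axis, bases), 1 line per library; the dashed line is the share over all positions of the same last exons (0.674%, sampled every 7 bases). Both lines peak at 16 to 20 bases before the end, with 13.5% and 14.2%, and beyond 45 bases they lie between 0.198% and 1.39%.

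The ends shown above belonged to models with reads in both libraries in most cases, and the reads given are those of the models. The Soat1 end lay 1323 bases into the last exon and had 22 reads in replicate 1 and 40 in replicate 2. The Eif4g2 end, at 826 bases, had 17 and 45, the end of Col4a1, at 364 bases, 21 and 31, the end of the secretory pathway gene Preb, at 695 bases, 16 and 29, and that of the myosin phosphatase gene Mprip, at 708 bases, 15 and 26. The 2 ends of G3bp1 were each found in models of 1 library. Models with the nearer end, at 694 bases, held 30 reads in replicate 1 and 0 in replicate 2. Those with the farther end, at 1052 bases, held 0 and 29. Different models of a library can carry the same end: all 10 of Slc6a6-201 in replicate 1 ended at 587 bases. Where the single reads of G3bp1 ended in each library is thus not shown. Of the ends before a run of A, that of Akap2, at 247 bases, had 36 and 151 reads, that of the Golgi gene Glg1, at 497 bases, 18 and 18, and that of Nacc2, at 1464 bases, 13 and 12. The end with the most reads and neither feature belonged to Tacc1, at 4101 of 5269 bases, with 0 and 98 reads.

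Some members with the most exons and the longest spans were read in both libraries. Of members read in both libraries, Uggt1-201, of a glycoprotein folding sensor, has 41 exons and the longest span, 4572 bases, and had 1 read in each. Rab3gap2-201 has 35 exons, the methionine synthase model Mtr-201 33 with 2 and 1 reads, and the actin regulator models Cyfip1-201 and Cyfip2-202 31 each, with 10 and 46 and 4 and 22 reads, both higher in replicate 2. Fyco1-202, of a protein of autophagosome transport, spans 4333 bases and had 1 and 7 reads, and Uhrf1bp1l-201 spans 4213 bases and had 3 and 1. The 8 members of 5000 bases of span or more had 3 reads in replicate 1 and 7 in replicate 2. Of the long models, Gm37494-202, a lincRNA of 16021 bases, had 2 and 1 reads, and Serbp1-201, of 15474 bases, 28 and 5, lower in replicate 2.

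Models next to the length limit, with at least 10 reads, had few to moderate reads on both sides. Just inside, Tmem106b-201 (6002 bases) had 15 reads in replicate 1 and 19 in replicate 2, Spred1-201 (6016 bases) 4 and 8, and Ddx6-203 (6029 bases) 13 and 33. Just outside, Gnb4-205 (5997 bases) had 48 and 40, Stxbp4-207 (5985 bases) 3 and 16, and Agpat3-201 (5980 bases) 10 and 0.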

How the data were processed

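The authors deposited, for each library, whole read counts per transcript model and the exons of each model, per the file headers and the text deposited with them on mm10 with the GENCODE M21 annotation; model names follow TALON's style. The tables list only models with at least 1 read. The aligner is not given in the sources used here. Members, lists and tests were chosen with earlier results of these data known. Read counts were divided by all reads of the library (CPM). Fisher's exact test, adjusted by Benjamini-Hochberg (threshold 0.05), was run over all known spliced models with at least 10 reads and, for ISM shares, all genes with at least 20 ISM and known reads in each library. It was tested on simulated data and takes reads as independent. TMM (edgeR 4.0.16) and DESeq2 (1.42.0) factors, in R 4.3.3, were alternatives with an exact binomial test. All else was computed in Python 3.11.15 (scipy 1.17.1, pandas 2.3.3, numpy 2.4.6). Named were the 12 members of highest mean CPM; of members in both libraries, the 5 longest, the 5 with most exons and the 3 of longest span; the 6 highest and 6 lowest called ratios; the 5 highest and 5 lowest ISM shares and the 3 of lowest adjusted p; the 3 of highest mean CPM in each list; and the 3 with at least 10 reads nearest the length limit on each side, with at most 2 models of a gene for each item. Some items that these rules name are not reported here. Ends, stop exons, genes without a member and a few single models were named after their values were seen. Sequences are those of the GENCODE M21 transcripts (GRCm38), which matched all 689 members in length. Shares carry exact 95% intervals.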

Additional observations from a re-analysis of the deposited data

How the results depend on the processing

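No paired analysis was possible because the series has 1 group. The number of members (689) became 1354, 358 and 218 at length limits of 5000, 7000 and 8000 bases, 253 with at least 10 reads and 75 with a span of at least 3000 bases. Their share of known reads, 1.84% on average, became 3.61% and 0.545% at 5000 and 8000 bases and 0.0560% with that span. Leaving out a library gave 475 to 602 members and a share of 1.18% to 2.51%. The 141 members higher in replicate 2 became 92 with DESeq2 size factors. The mean of the median ISM shares, 13.8%, became 6.74% without ISM models of a single read and was 9.09% to 18.4% in single libraries. Genes with a lower ISM share in replicate 2 were 18 of 41, against 39 of 105, with at least 50 reads in each library, where fewer genes were tested. With at least 10 reads, or over all reads of the gene, 1 gene was higher, against 0. The log2 ratio of G3bp1-201 became -0.27 and -0.36, that of Mapre1-201 -0.14 and -0.23, and that of Akap2-202, not called, -0.42 and -0.51 (from 0.09), with TMM and DESeq2 factors. Of 45 named or listed members tested, 40 and 37 kept direction and call under these scalings, and 2 and 5 kept direction only. The ISM difference of Map4, not called, went from -1.04 to 0.771 points over all reads of the gene. The next settings were chosen after seeing the data. Ends with a hexamer, 38.9% on average, were 35.5% in a 30-base window, against 3.13% of positions, and 36.7% to 41.1% in single libraries. Ends before a run of A, 25.01%, were 30.7% with at least 10 A, against 6.08% of positions, 13.5% with at least 15 A, against 0.313%, and 22.4% to 27.6% in single libraries. The causes of these values were not tested. Members with 1 read over both libraries were 161, and the part of depth in this number was not tested.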
